A study of Mus musculus with 8 samples.

Results

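The genes described here are the DNA replication machinery: the 37 mouse genes of the origin recognition complex, the licensing factors, the MCM2-7 helicase and its activators, the sliding clamp and its loader, the replicative polymerases and primase, the nuclease and ligase of the lagging strand, and the enzymes of deoxynucleotide supply. The members were chosen by symbol for their function, and 32 of the 37 had a row among the 21950 genes of the count table. *Orc1*, *Orc6*, *Mcm4*, *Cdc45* and *Lig1* had no row, so their expression was not analysed here. The study asked how germ cells made in culture differ from germ cells of the embryo, and bulk RNA was sequenced from 8 sorted pools of cells, 4 of d6PGCLCs and 4 of E12.5 PGCs. D6PGCLCs are primordial germ cell-like cells, made from a female mouse iPSC line (BVSC-iPSC, from adult tail tip fibroblasts) that carries Blimp1-Venus and Stella-ECFP transgenes. They were taken at day 8 of culture, which is 6 days after PGCLC induction from epiblast-like cells in medium with BMP4, SCF, LIF and EGF, and were sorted for both reporters. E12.5 PGCs were sorted as SSEA1 and integrin β3 double-positive cells from female gonads of inbred C57BL/6J fetuses at E12.5. The pools came from independent experiments, but all d6PGCLC pools came from 1 iPSC line, so culture, line, genetic background, sort and stage cannot be told apart in this comparison.

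Replication starts when the origin recognition complex, with *Cdc6* and *Cdt1*, loads the ring-shaped MCM2-7 complex onto DNA in G1 phase. In S phase CDC45 and the GINS complex join the ring to form the active helicase, primase and polymerase alpha lay down primers, and polymerases epsilon and delta extend them on the PCNA clamp. PGCs divide rapidly while they colonize the gonad, and female PGCs leave the mitotic cycle around the stage sampled here, when they enter meiosis after a last round of DNA replication.

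The d6PGCLC libraries held 8054596 to 12024841 counted reads and the E12.5 PGC libraries 7991437 to 11166023. Values are given as CPM (counts scaled to a common library total with TMM), for which 3 counts in a library correspond to 0.249 to 0.375 CPM, a limit that covers counting error only. Where values of both groups are given together, those of d6PGCLCs come first, in the order of replicates 1 to 4. All 10 listed germ cell markers had a row, with a summed level of 3947 to 4553 CPM in d6PGCLCs and 4512 to 5046 CPM in E12.5 PGCs. By edgeR's quasi-likelihood test 5 of them were higher in d6PGCLCs (*Pou5f1*, *Prdm1*, *Prdm14*, *Tfap2c* and *Dppa3*, log2 fold changes 0.65 to 1.21), and 3 were lower (*Ddx4*, *Dazl* and *Dnd1*). *Prdm1* and *Dppa3* are the genes whose reporters, Blimp1 and Stella, were used in the sort of d6PGCLCs. The later markers *Ddx4* (27.2 to 42.8 CPM) and *Dazl* (17.8 to 63.9 CPM) were low in d6PGCLCs, against 626 to 836 and 1018 to 1579.8 CPM in E12.5 PGCs. Of the 10 listed markers of gonadal somatic cells 9 had a row, with sums of 0.664 to 19.4 CPM in d6PGCLCs and 2.53 to 8.94 CPM in E12.5 PGCs, and 7 of the 9 never exceeded 3 counts in a d6PGCLC library. Of these 9, *Col1a1* was higher in d6PGCLCs (0.766, 3.87, 0.249 and 11.8 CPM against 0.0903 to 0.421 CPM, with overlap) and 4 were lower. The log2 fold change of *Col1a1* was 4.24, and 2.91 to 4.80 with each library left out. Of the 4 lower genes, *Pdgfra* was lost without d6PGCLC replicate 2 or E12.5 PGC replicate 1 (quasi-likelihood adjusted p up to 0.0700). The sums over 7 of 10 listed blood and endothelial markers were 37.3 to 50.7 and 15.7 to 27.6 CPM, with *Ptprc* at 0 counts in 7 of the 8 libraries. Of these 7 genes 3 passed, all higher in d6PGCLCs with no overlap: *Cd68*, a macrophage marker, at 12.6 ± 2.32 and 2.25 ± 1.07 CPM, *Cdh5*, an endothelial cadherin, at 10.97 ± 4.13 and 4.18 ± 1.16 CPM, and *Csf1r*, at 1.08 to 3.06 CPM in d6PGCLCs and 0 in all E12.5 PGC libraries. The 10 markers of pluripotent and epiblast-like cells summed to 1604 to 1727 CPM in d6PGCLCs and 817 to 896 CPM in E12.5 PGCs, a sum made up mostly of *Nanog*, *Sox2*, *Esrrb* and *Zfp42*. Those 4 and *Dnmt3b* were higher in d6PGCLCs, with *Nanog* at 610.1 ± 79.5 and 257 ± 22.4 CPM, while *Fgf5*, *Pou3f1* and *T*, all low, were lower, *Fgf5* not without E12.5 PGC replicate 2 (adjusted p = 0.0580). Meiotic entry genes summed to 130 to 149 CPM in d6PGCLCs and 193 to 273 CPM in E12.5 PGCs, where *Stra8*, the gene that opens meiotic entry, was at 20.5, 2.74, 18.9 and 3.70 CPM in replicates 1 to 4. Of the 10 genes 8 were lower in d6PGCLCs (*Stra8* among them) and 2, *Rec8* and *Meiob*, were higher, and the list had a median of -2.04 on the log2 scale. *Rec8*, a cohesin subunit, made up most of the d6PGCLC sum, at 92.05 ± 6.91 and 54.9 ± 18.00 CPM. The part of these differences in the results on replication genes was not tested. The values are from bulk RNA, in which fewer cells of a type, such as cells in S phase, and less RNA per cell cannot be told apart.

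The replication genes changed little and in both directions. In d6PGCLCs the mRNAs of 4 of the 5 counted MCM2-7 subunits, of the catalytic subunits of all 3 replicative polymerases and of the flap nuclease *Fen1* were lower than in E12.5 PGCs, while *Rrm2* and *Tk1*, which supply deoxynucleotides, together with *Gins2* and *Rfc2*, were higher. The calls of *Rfc2* and of *Mcm6*, an MCM subunit, rested on overlapping groups and were lost when any of 6 and of 5 libraries, named with their values, was left out. In edgeR's quasi-likelihood test, with p-values adjusted by Benjamini-Hochberg across the whole table and called at 0.05 or below, 4 of the 32 members were higher in d6PGCLCs, 8 were lower and 20 did not pass. Over all genes 16.1% were higher and 15.4% lower, so 4 of 32 was a smaller share and 8 of 32 a larger share than in the whole table. Among the 8768 genes with a mean level at or above that of the lowest member (6.99 CPM), where counting limits the test less, 28.5% were higher and 25.4% lower. Beside these well-counted genes, 8 of 32 lower was about the same share and 4 of 32 higher was a smaller one. The larger share of lower members was thus seen only beside the whole table. The share of members called in either direction was 37.5%, against 31.5% of all genes and 53.9% of these well-counted genes. An unadjusted p below 0.05 was reached by 17 members, or 53.1%, beside 37.6% of all genes and 61.8% of the well-counted ones.

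The changes were small. None of the 32 members passed with a log2 fold change of 1 or more in size (0 members), a rule met by 14.7% of all genes and 14.3% of the well-counted ones, and DESeq2 also gave 0 members. The median log2 fold change of the members was -0.10 (d6PGCLC over E12.5 PGC), beside 0 over all genes and 0.01 over the well-counted genes. It was -0.046 without d6PGCLC replicate 1, -0.16 without d6PGCLC replicate 2 and -0.16 without E12.5 PGC replicate 1. The median absolute log2 fold change of the members was 0.23, beside 0.38 and 0.36. The groups were fully separated for 11 members, or 34.4%, against 30.2% of all genes and 51.6% of the well-counted genes. Together the 32 members took 0.838% to 0.898% of the counted reads of the d6PGCLC libraries and 0.944% to 0.961% of those of the E12.5 PGC libraries, with no overlap. On the TMM scale their sums were 8407 to 9161 CPM and 9123 to 9584 CPM, and these ranges overlapped.

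**Figure D1:**
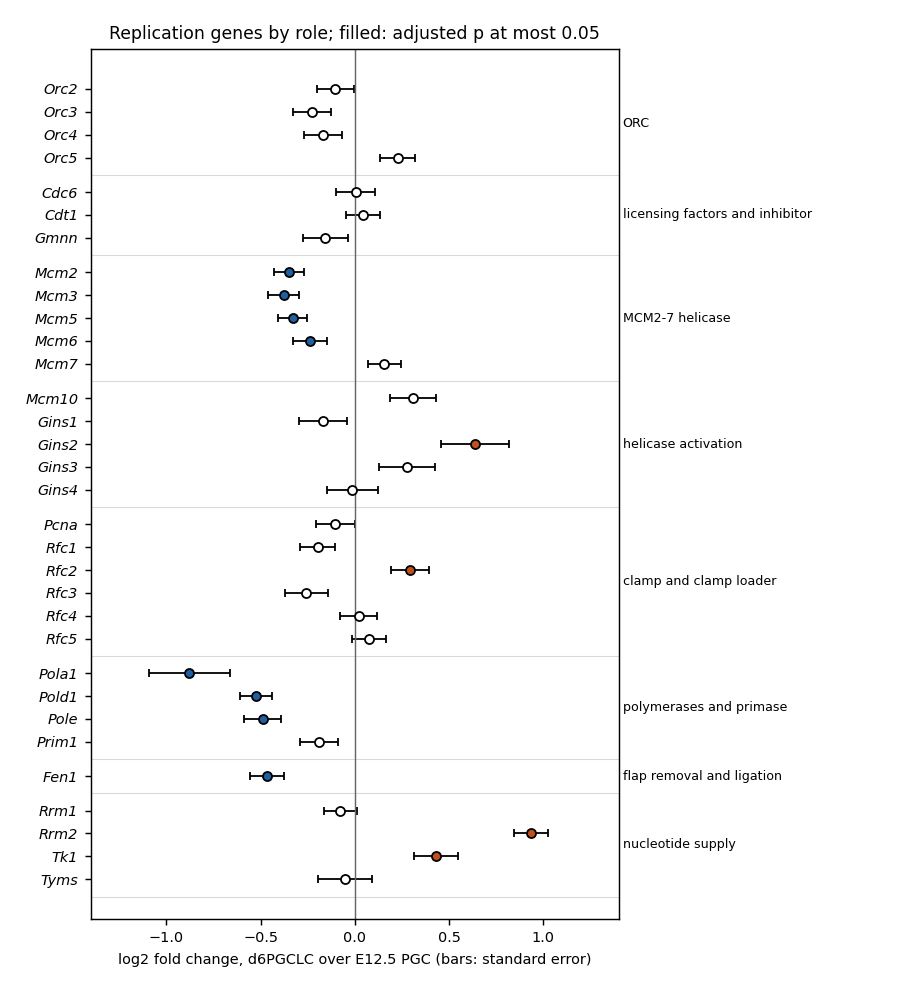
Log2 fold change (d6PGCLC over E12.5 PGC, horizontal axis) of the 32 counted replication genes, grouped by role, with bars for the standard error. Filled points passed an adjusted p of 0.05: 8 lie left of 0, among the MCM2-7 helicase, the polymerases and flap removal, and 4 lie right of 0, in helicase activation, the clamp loader and nucleotide supply.

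In the origin recognition complex, the 6-subunit ATPase that marks origins, none of the 4 counted genes passed edgeR's quasi-likelihood test, although 2 had an unadjusted p of at most 0.05. *Orc2* (log2 fold change -0.10, standard error 0.0990, adjusted p = 0.542) and *Orc4* (log2 fold change -0.17, standard error 0.101, adjusted p = 0.252) overlapped between the groups. *Orc3* was at 89.6, 117, 101 and 109 CPM in d6PGCLC replicates 1 to 4 and 123, 114, 123 and 128 CPM in E12.5 PGC replicates 1 to 4 (log2 fold change -0.23, standard error 0.0988, adjusted p = 0.0908). *Orc5* lay the other way, at 108, 126, 111 and 114 and 92.1, 92.4, 102 and 106 CPM (log2 fold change 0.23, standard error 0.0951, adjusted p = 0.0789). Its groups did not overlap, and both genes passed with DESeq2 and with either filter on low counts. Exons of *Orc2* share 1150 bases with the opposite-strand gene *Nif3l1*, and those of *Orc4* share 446 bases with *Acvr2a*. Here and below, such overlaps were measured over all annotated exons of a gene, not over the counted isoform alone. The libraries were stranded, but whether the counting used strand is not stated, so reads of such pairs may not be told apart.

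None of the 3 licensing genes passed the test, adjusted or not, or DESeq2 (0 of 3). *Cdc6*, the ATPase that loads the helicase with ORC, was at 98.2, 107, 108 and 105 CPM in d6PGCLC replicates 1 to 4. The E12.5 PGC libraries had 97.4, 124, 102 and 93.7 CPM (log2 fold change 0.00, 95% interval -0.21 to 0.21, adjusted p = 1). The d6PGCLC values lay wholly within the range of the E12.5 PGC values. *Cdt1*, its partner in loading, was at 361, 312, 330.5 and 299 CPM and 328, 343, 292 and 302 CPM (log2 fold change 0.04, 95% interval -0.14 to 0.23, adjusted p = 0.934). *Gmnn*, which encodes geminin, the inhibitor of CDT1, ranged from 104 to 177 CPM in d6PGCLCs and from 142 to 164 CPM in E12.5 PGCs (log2 fold change -0.16, 95% interval -0.41 to 0.09, adjusted p = 0.406). The ratio of *Cdt1* to *Gmnn* counts per kilobase was 0.932 ± 0.281 (SD, n = 4) in d6PGCLCs and 0.778 ± 0.0899 in E12.5 PGCs, with overlap.

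The MCM2-7 subunits form 1 ring in equal numbers, and in the embryo-derived cells their mRNAs were among the most abundant of the members. *Mcm2* was at 755, 724, 738 and 713 CPM in d6PGCLC replicates 1 to 4 and at 992, 847, 969 and 929 CPM in E12.5 PGC replicates 1 to 4. *Mcm3* was at 832, 759.97, 718 and 707 CPM in d6PGCLCs, with 1041, 907, 992 and 980.1 CPM in E12.5 PGCs. *Mcm5* was at 676, 702, 682 and 637 CPM and 862, 823, 851 and 853 CPM. For these 3 genes every d6PGCLC library lay below every E12.5 PGC library, and the d6PGCLC level was 0.784, 0.770 and 0.796 times that of E12.5 PGCs. By edgeR's quasi-likelihood test *Mcm2* (Entrez 17216, chr6:88883474-88898780 in GRCm38) had a log2 fold change of -0.35, a standard error of 0.0806 and an adjusted p of 0.00157. For *Mcm3* (Entrez 17215, chr1:20802966-20820312) the fit gave a log2 fold change of -0.38, a standard error of 0.0835 and an adjusted p of 0.00110. *Mcm5* (Entrez 17218, chr8:75109468-75128439) had a log2 fold change of -0.33, a standard error of 0.0776 and an adjusted p of 0.00193. These 3 calls were kept with each library left out in turn and under each other setting tried.

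For *Mcm6* and *Mcm7* the groups were not fully separated as they were for these 3, and both genes were singled out after their values were seen. *Mcm6* was at 967, 949.5, 815 and 856 CPM in d6PGCLCs, with 1196, 949, 1042 and 1047 CPM in E12.5 PGCs. The groups overlapped, since d6PGCLC replicates 1 and 2 lay above E12.5 PGC replicate 2. *Mcm6* passed the test narrowly (log2 fold change -0.24, standard error 0.0894, adjusted p = 0.0464). Its 95% interval of -0.42 to -0.05 overlapped those of *Mcm2*, *Mcm3* and *Mcm5*. The call was lost with the likelihood ratio test (adjusted p = 0.0563) and when any of 5 libraries was left out (d6PGCLC replicates 3 and 4 and E12.5 PGC replicates 1, 3 and 4, adjusted p 0.0842 to 0.188). *Mcm7* was at 1263, 1143, 1010.2 and 968 CPM in d6PGCLC replicates 1 to 4 and 979.6, 974, 979 and 1001 CPM in E12.5 PGC replicates 1 to 4. The d6PGCLC values were spread over a wide range that began just below the narrow range of the E12.5 PGC values, and *Mcm7* did not pass (log2 fold change 0.16, 95% interval -0.03 to 0.34, adjusted p = 0.217). Its interval lies above those of *Mcm2* (-0.52 to -0.18), *Mcm3* (-0.55 to -0.20) and *Mcm5* (-0.49 to -0.17), and the differences between subunits were not tested. *Mcm7* exons share 321 bases with *Ap4m1* and 64 with *Cops6* on the opposite strand, and it hosts the microRNA genes *Mir25* and *Mir93*.

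Within a library, *Mcm7* was thus high beside its partners in d6PGCLCs. The ratio of *Mcm7* to *Mcm3* counts per kilobase was 1.81, 1.79, 1.68 and 1.63 in d6PGCLC replicates 1 to 4 and 1.12, 1.28, 1.18 and 1.22 in E12.5 PGC replicates 1 to 4. Against *Mcm2* the means were 2.00 ± 0.210 and 1.41 ± 0.0980, and against *Mcm5* 2.23 ± 0.239 and 1.60 ± 0.0285 (SD, n = 4 libraries each). Against *Mcm6* they were 1.46 ± 0.0875 and 1.12 ± 0.103. For each of these 4 ratios, chosen after the values were seen and given without a test, all d6PGCLC libraries lay above all those of E12.5 PGCs. The 5 counted subunits summed to 3882 to 4493 CPM in d6PGCLCs and 4500 to 5070 CPM in E12.5 PGCs.

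The promoters of these genes are printed because the subunits share 1 complex while *Mcm7* did not pass the test as the others did. *Rrm2* is added as the member with the largest change when all libraries were fitted. E2F factors, which drive S phase genes, are known to bind short GC-rich sites after a run of T, searched here on both strands as TTTCCCGC, TTTGGCGC, TTTCGCGC and TTTGCCGC. The CCAAT box was searched as CCAAT and the GC box as GGGCGG, also on both strands. None of these motifs contains another, though neighbouring matches can share bases at their ends. Each sequence runs 5′ to 3′ from 250 bases before to 50 bases after the gene's RefSeq start (GRCm38.p6), with the E2F letters in capitals. The windows are chr6:88898731-88899030, minus strand, for *Mcm2*, chr1:20820263-20820562, minus strand, for *Mcm3*, chr8:75109259-75109558, plus strand, for *Mcm5*, chr1:128359656-128359955, minus strand, for *Mcm6*, chr5:138171834-138172133, minus strand, for *Mcm7* (the upstream of 2 listed starts), and chr12:24708004-24708303, plus strand, for *Rrm2*.
Mcm2: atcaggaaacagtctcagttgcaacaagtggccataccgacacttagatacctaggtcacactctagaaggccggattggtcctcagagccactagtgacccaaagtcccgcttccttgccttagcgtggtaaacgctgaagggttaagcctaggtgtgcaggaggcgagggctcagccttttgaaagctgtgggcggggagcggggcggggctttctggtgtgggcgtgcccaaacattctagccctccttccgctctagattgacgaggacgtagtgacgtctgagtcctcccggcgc
Mcm3: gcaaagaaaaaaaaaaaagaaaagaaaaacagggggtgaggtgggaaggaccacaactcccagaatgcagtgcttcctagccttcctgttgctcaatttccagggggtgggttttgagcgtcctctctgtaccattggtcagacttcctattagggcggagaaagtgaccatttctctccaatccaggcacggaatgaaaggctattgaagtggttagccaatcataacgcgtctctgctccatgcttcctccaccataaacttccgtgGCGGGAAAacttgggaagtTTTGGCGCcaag
Mcm5: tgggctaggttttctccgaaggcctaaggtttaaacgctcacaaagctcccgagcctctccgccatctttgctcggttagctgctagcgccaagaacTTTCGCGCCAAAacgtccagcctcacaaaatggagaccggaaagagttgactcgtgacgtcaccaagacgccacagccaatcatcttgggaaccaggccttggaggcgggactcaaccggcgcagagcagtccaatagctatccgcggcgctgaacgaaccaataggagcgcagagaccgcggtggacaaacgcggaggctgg
Mcm6: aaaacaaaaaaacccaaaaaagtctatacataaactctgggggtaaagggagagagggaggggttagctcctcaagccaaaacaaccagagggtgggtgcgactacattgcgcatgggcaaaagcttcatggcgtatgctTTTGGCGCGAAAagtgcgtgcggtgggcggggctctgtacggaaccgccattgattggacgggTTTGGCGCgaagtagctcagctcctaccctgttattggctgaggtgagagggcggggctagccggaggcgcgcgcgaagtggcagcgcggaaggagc
Mcm7: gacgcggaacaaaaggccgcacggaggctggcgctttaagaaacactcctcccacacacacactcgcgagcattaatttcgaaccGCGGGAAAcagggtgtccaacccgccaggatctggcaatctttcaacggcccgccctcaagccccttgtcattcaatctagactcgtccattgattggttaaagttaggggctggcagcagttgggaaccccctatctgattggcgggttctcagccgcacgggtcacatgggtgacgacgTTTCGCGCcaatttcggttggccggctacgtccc
Rrm2: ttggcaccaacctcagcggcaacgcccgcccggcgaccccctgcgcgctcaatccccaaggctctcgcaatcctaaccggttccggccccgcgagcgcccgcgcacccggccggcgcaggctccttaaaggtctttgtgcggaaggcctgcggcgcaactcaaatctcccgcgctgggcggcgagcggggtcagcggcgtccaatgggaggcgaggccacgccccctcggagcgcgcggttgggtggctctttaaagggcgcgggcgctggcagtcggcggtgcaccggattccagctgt

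*Mcm3*, *Mcm5*, *Mcm6* and *Mcm7* each held E2F letters in this window, with 2, 2, 3 and 2 matches. The window of the other *Mcm7* start had 0 matches. In *Mcm5* and in the first pair of *Mcm6* a match on each strand overlapped the other. *Mcm2* and *Rrm2* had none of these letters here, and both had a CCAAT box and a GC box. Of the 37 members 30 had a promoter in the RefSeq table, and 13 of the 30 (43.3%) held E2F letters: *Orc1*, *Orc3*, *Cdc6*, *Cdt1*, *Mcm3*, *Mcm5*, *Mcm6*, *Mcm7*, *Gins3*, *Rfc3*, *Pola1*, *Pold1* and *Lig1*. Over all 27025 genes of that table the share was 2.60%, where a gene with several starts counted if any of its windows held a match. A CCAAT box was found in 63.3% of the members and 41.1% of all genes, and a GC box in 73.3% and 38.2%. TTTGAA, the letters of the cell cycle homology region of late cell cycle genes, occurred in 13.3% of the members and 20.2% of all genes, and the TATA box letters TATAAA in 6.67% and 15.7%. A match is a description of the letters in the window, not a site shown to be bound.

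**Figure D2:**
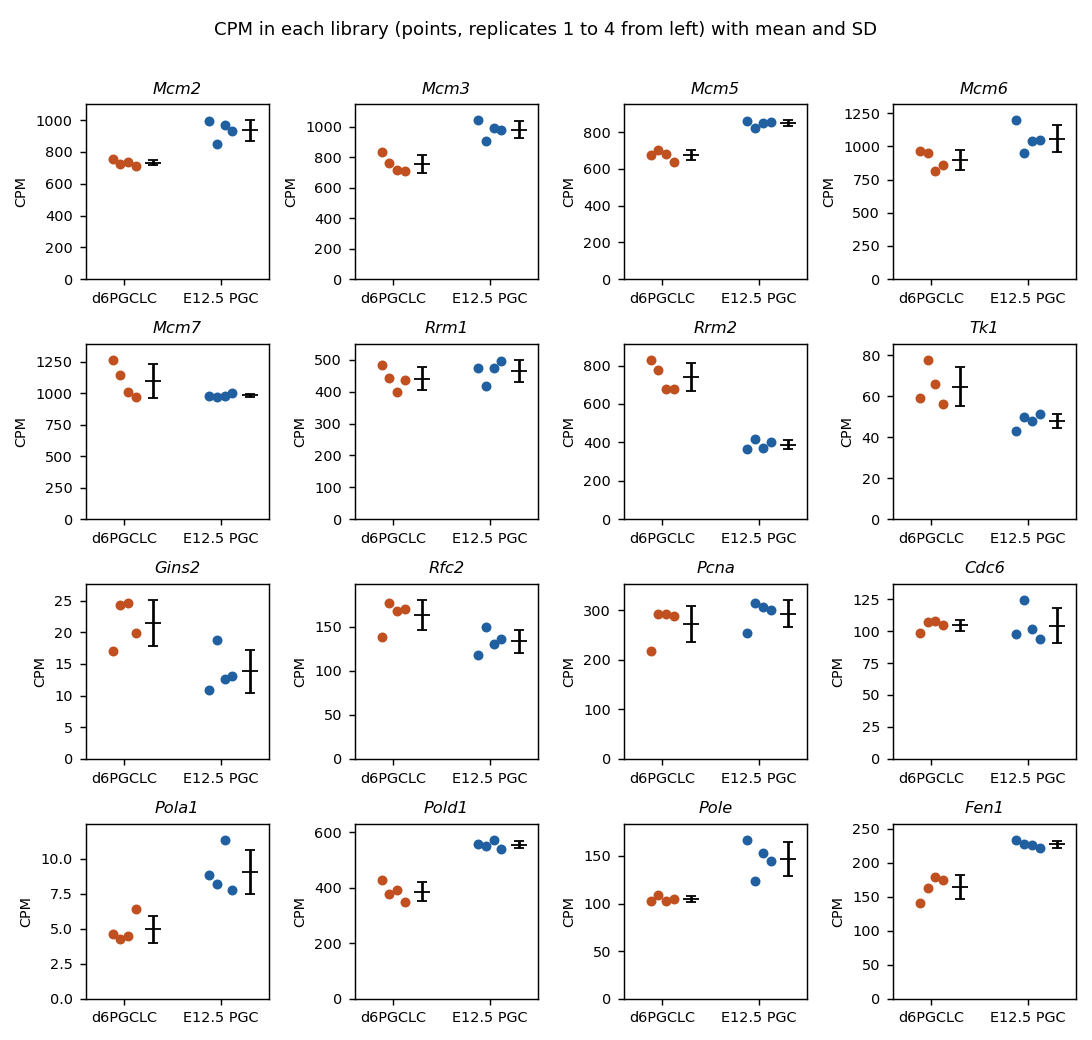
CPM in each library (vertical axis, from 0) of 16 replication genes, with points for replicates 1 to 4 from left to right and the mean and SD beside them. *Mcm2*, *Mcm3* and *Mcm5* lie lower in all 4 d6PGCLC libraries, *Rrm2* and *Tk1* lie higher, and *Mcm7*, *Rrm1*, *Pcna* and *Cdc6* overlap between the groups.

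Of the genes that turn the loaded ring into an active helicase, *Gins2* was higher in d6PGCLCs and the other 4 that were counted did not pass. *Gins2*, a subunit of the 4-protein GINS complex, was at 17.1, 24.2, 24.6 and 19.9 CPM in d6PGCLC replicates 1 to 4 and 10.9, 18.7, 12.6 and 13.1 CPM in E12.5 PGC replicates 1 to 4. The groups overlapped through E12.5 PGC replicate 2, which lay above d6PGCLC replicate 1 (log2 fold change 0.64, standard error 0.178, adjusted p = 0.00774). The call was kept with each library left out. The other GINS genes had log2 fold changes of -0.17 (*Gins1*), 0.28 (*Gins3*) and -0.01 (*Gins4*), with adjusted p from 0.191 to 1. *Gins4* was at 60.6, 108, 87.95 and 87.04 CPM in d6PGCLCs, with 73.5, 90.3, 90.5 and 93.2 CPM in E12.5 PGCs, and the 95% interval of its log2 fold change was -0.29 to 0.27. The ratio of *Gins2* to *Gins4* counts per kilobase was 0.384, 0.304, 0.381 and 0.311 in d6PGCLCs and 0.201, 0.282, 0.190 and 0.191 in E12.5 PGCs, with no overlap. The pairs of genes in this ratio and in those of *Rfc2* and *Rrm2* were also chosen after the values were seen and are given without a test. *Mcm10*, a factor needed to start the helicase, was at 45.7, 38.9, 44.1 and 42.2 CPM and 30.1, 39.3, 34.2 and 34.4 CPM (log2 fold change 0.31, standard error 0.121, adjusted p = 0.0586). It passed with DESeq2 (adjusted p = 0.0292) and with both filters on low counts. The counted isoforms of *Gins2* (1238 bases) and *Mcm10* (1102 bases) are short beside the longest GENCODE transcripts of 3900 and 4867 bases. Over all annotated exons, 2758 bases of *Gins2* overlap *Gse1* on the opposite strand, which was at 103 and 105 CPM. This is more than the counted isoform holds, and the overlap within that isoform was not measured.

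*Pcna*, the ring that tethers the polymerases to DNA, was at 218, 293, 292 and 289 CPM in d6PGCLC replicates 1 to 4 and 253, 314, 306 and 301 CPM in E12.5 PGC replicates 1 to 4 (log2 fold change -0.10, 95% interval -0.32 to 0.11, adjusted p = 0.543). Replicate 1 was the lowest library in each group, and without d6PGCLC replicate 1 the log2 fold change was -0.01. *Pcna* also has 2 annotated pseudogenes, which can take reads from it when only unique positions are counted. Of the 5 genes of replication factor C, which opens the clamp and loads it, *Rfc2* passed the test. *Rfc2* was at 138, 176, 168 and 169.6 CPM in d6PGCLCs, with 118, 149.5, 129.7 and 135 CPM in E12.5 PGCs, and the groups overlapped between d6PGCLC replicate 1 and E12.5 PGC replicate 2 (log2 fold change 0.29, standard error 0.101, adjusted p = 0.0298). This call was not stable. It was lost with library sizes alone (adjusted p = 0.0686), upper quartile scaling (0.0567) and an offset for exonic length (0.107), and when any of 6 libraries was left out (d6PGCLC replicates 2, 3 and 4 and E12.5 PGC replicates 1, 3 and 4, adjusted p 0.0599 to 0.105). Exons of *Rfc2* share 952 bases with *Lat2* on the opposite strand (0.201 and 0.717 CPM), and its counted isoform has 1958 of the 4995 bases of the longest GENCODE transcript. *Rfc1*, the large subunit, and *Rfc3* had log2 fold changes of -0.20 and -0.26 (adjusted p = 0.127 and 0.0972). *Rfc4* was at 129.9, 178, 142 and 156 CPM in d6PGCLCs, with 142, 150.2, 154 and 151 CPM in E12.5 PGCs (log2 fold change 0.02, 95% interval -0.18 to 0.23, adjusted p = 1). *Rfc5* had a log2 fold change of 0.07, a standard error of 0.0915 and an adjusted p of 0.685. Exons of *Rfc4* share 194 bases with *Eif4a2* on the opposite strand (595 and 480 CPM), and those of *Rfc5* share 499 with *Wsb2*. The ratio of *Rfc2* to *Rfc4* counts per kilobase was 0.933 ± 0.0672 (SD, n = 4) in d6PGCLCs and 0.770 ± 0.0656 in E12.5 PGCs, with overlap. The subunits of this pentamer thus had log2 fold changes between -0.26 and 0.29.

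The catalytic subunits of the 3 replicative polymerases were all lower in d6PGCLCs, with no overlap between the groups. *Pold1*, the catalytic subunit of polymerase delta, was at 428, 377, 391 and 348 CPM in d6PGCLC replicates 1 to 4 and 558, 551, 573 and 540.3 CPM in E12.5 PGC replicates 1 to 4. Its level in d6PGCLCs was 0.695 times that in E12.5 PGCs (log2 fold change -0.53, standard error 0.0842, adjusted p = 3.57e-05). *Pole*, the catalytic subunit of polymerase epsilon, was at 103, 109, 102 and 105 CPM in d6PGCLCs, with 167, 124, 153 and 144 CPM in E12.5 PGCs. All d6PGCLC values of *Pole* lay close together and below the lowest E12.5 PGC library, replicate 2 (log2 fold change -0.49, standard error 0.0983, adjusted p = 0.000445). *Pola1*, which extends the primer as part of polymerase alpha-primase, was at 4.59, 4.28, 4.48 and 6.42 CPM in d6PGCLCs, with 8.86, 8.21, 11.3 and 7.76 CPM in E12.5 PGCs (log2 fold change -0.88, standard error 0.213, adjusted p = 0.00249). It had the lowest counts and the largest decrease of the members, and its log2 fold change was -1.02 without d6PGCLC replicate 4. Its counted exons hold 617 bases, beside 5346 in the longest GENCODE transcript (chrX:93304766-93632387, the only member on the X chromosome), so its value describes a small part of the gene. For *Pole* these lengths are 2168 and 7163 bases. *Prim1*, the catalytic subunit of primase, was at 118, 164, 157 and 164 CPM and 168, 170.2, 172 and 179 CPM. Its groups did not overlap, but it did not pass (log2 fold change -0.19, 95% interval -0.40 to 0.02, adjusted p = 0.186), and d6PGCLC replicate 1 was far below the other libraries.

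*Fen1*, the nuclease that removes the flaps of Okazaki fragments, was the only counted member of its group. It was at 140.3, 163, 179 and 175 CPM in d6PGCLC replicates 1 to 4 and 234, 227, 226 and 222 CPM in E12.5 PGC replicates 1 to 4. The groups did not overlap, and the d6PGCLC level was 0.723 times that of E12.5 PGCs (log2 fold change -0.47, standard error 0.0912, adjusted p = 0.000324). Its exons share 1909 bases with an antisense gene, *Gm10143*, which was not in the table.

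With all libraries in the fit, the largest change of any member was that of *Rrm2*. It encodes the small subunit of ribonucleotide reductase, the enzyme that makes deoxynucleotides for replication. *Rrm2* (Entrez 20135, chr12:24708254-24714146 in GRCm38) was at 828, 776, 679 and 679.6 CPM in d6PGCLC replicates 1 to 4 and 363, 418, 371 and 399 CPM in E12.5 PGC replicates 1 to 4. Every d6PGCLC library lay far above every E12.5 PGC library, with a ratio of 1.91 (log2 fold change 0.93, standard error 0.0891, adjusted p = 3.65e-08). With each library left out in turn, the log2 fold change of *Rrm2* stayed between 0.88 and 0.97. Without d6PGCLC replicate 4, *Pola1* had the larger change in size (log2 fold change -1.02). *Rrm1*, the large subunit of the same enzyme, was at 485, 444, 398 and 436 CPM and 474, 417, 474 and 496 CPM, with overlap (log2 fold change -0.08, 95% interval -0.26 to 0.11, adjusted p = 0.635). The ratio of *Rrm2* to *Rrm1* counts per kilobase was 3.15, 3.22, 3.14 and 2.88 in d6PGCLCs and 1.41, 1.85, 1.45 and 1.48 in E12.5 PGCs, with no overlap. RRM2 is the subunit whose amount is known to follow the cell cycle, while RRM1 is long-lived.

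*Tk1*, the thymidine kinase of the salvage pathway, was at 58.97, 77.7, 66.1 and 56.4 CPM in d6PGCLCs, with 43.3, 49.98, 47.9 and 51.2 CPM in E12.5 PGCs. The groups did not overlap, although the lowest d6PGCLC and the highest E12.5 PGC libraries lay close to each other (log2 fold change 0.43, standard error 0.118, adjusted p = 0.00663). *Tyms*, which makes thymidylate by the other route, was at 73.9, 133, 125 and 124 CPM and 92.7, 126, 122 and 132 CPM (log2 fold change -0.05, 95% interval -0.35 to 0.25, adjusted p = 1). Replicate 1 was the lowest library in each group, and without d6PGCLC replicate 1 the log2 fold change was 0.11. *Tyms* has 1 annotated pseudogene. The 4 genes of this group summed to 1269 to 1446 CPM in d6PGCLCs and 973 to 1078 CPM in E12.5 PGCs. *Rrm2* had the largest difference of the 4 (means 741 and 388 CPM). *Rrm1* and *Tyms* had slightly lower means in d6PGCLCs and did not pass.

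Levels of different members were ranked as RPKM (CPM per kilobase of counted exons). Each value describes the counted isoform, which was short beside the longest GENCODE transcript for some members. It had 11.5% of that length for *Pola1*, 22.6% for *Mcm10*, 30.3% for *Pole* and 31.7% for *Gins2*, so the ranks of these genes may depend on the isoform drawn. In E12.5 PGCs the mean RPKM ran from 7.72 for *Gins3* to 328 for *Mcm7*. The 5 MCM2-7 genes held the top 5 places, with 296 RPKM for *Mcm6*, 275 for *Mcm3*, 233 for *Mcm2* and 206 for *Mcm5*, followed by *Pcna* at 196. In d6PGCLCs *Mcm7* was again first, at 366 RPKM, but *Rrm2* was second, at 287 RPKM against 150.3 in E12.5 PGCs. *Pola1* was the lowest there, at 8.01 RPKM, and the ORC genes lay between 18.6 (*Orc4*) and 44.96 (*Orc3*). The SDs of neighbours in this order often overlapped, as for *Rfc4*, *Rfc5* and *Cdt1* in E12.5 PGCs, so that such neighbours did not differ beyond their spread.

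**Figure D3:**
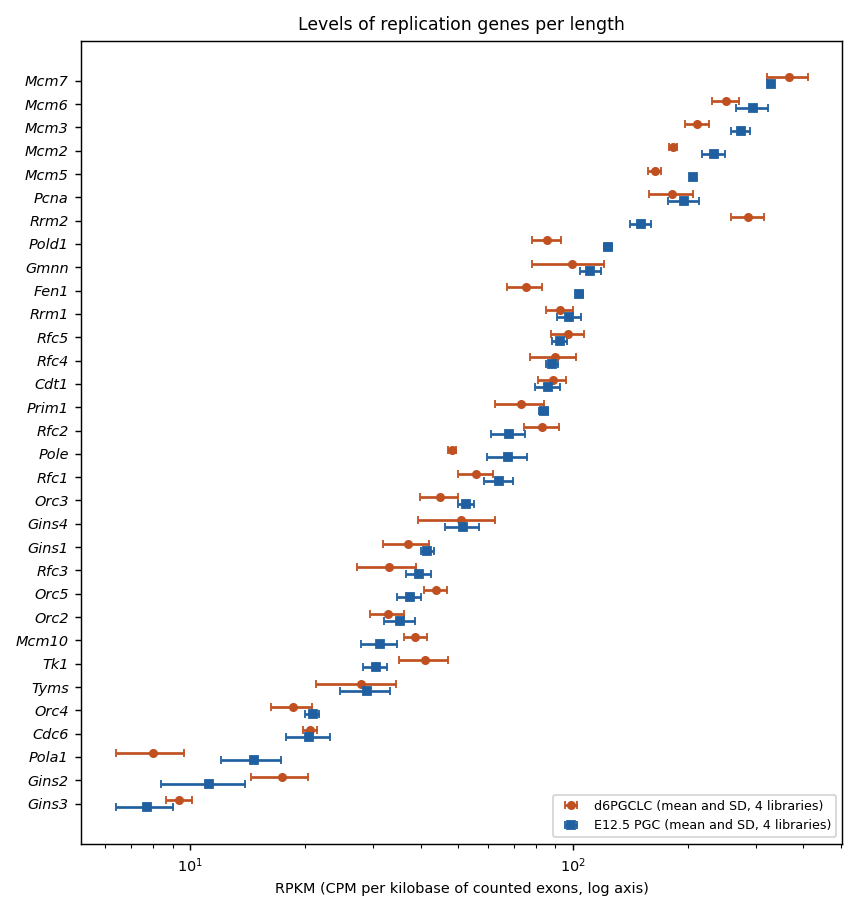
Mean RPKM (log axis) of the 32 counted replication genes in d6PGCLCs (circles) and E12.5 PGCs (squares), ordered by the E12.5 PGC level, with bars for the SD over 4 libraries. The MCM2-7 genes are at the top in E12.5 PGCs, and *Rrm2* lies at 287 RPKM in d6PGCLCs and 150.3 in E12.5 PGCs.

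D6PGCLC replicate 1 was the lowest of its group for 17 of the 32 members and the highest for 10, among which were *Mcm7*, *Rrm2*, *Cdt1* and *Pold1*. E12.5 PGC replicate 1 was the lowest of its group for 16 and the highest for 8, among them *Mcm2*, *Mcm3*, *Mcm5* and *Mcm6*. The highest d6PGCLC library for most other members was replicate 2, in 16 of 32. The median deviation of the members from their means over the 8 libraries (log2 CPM) ran from -0.15 in d6PGCLC replicate 1 to 0.11 in E12.5 PGC replicate 4. Libraries also differed in how the deviation of all genes changed with exonic length. The slope was 0.16 and 0.29 log2 units per 10-fold of length in replicate 1 of d6PGCLCs and of E12.5 PGCs, and between -0.29 and 0.10 in the other 6 libraries. With an offset that removes this trend, 14 members passed, among them 11 of the 12. Of all 21950 genes 7303 passed with it, in place of 6919.

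**Figure D4:**
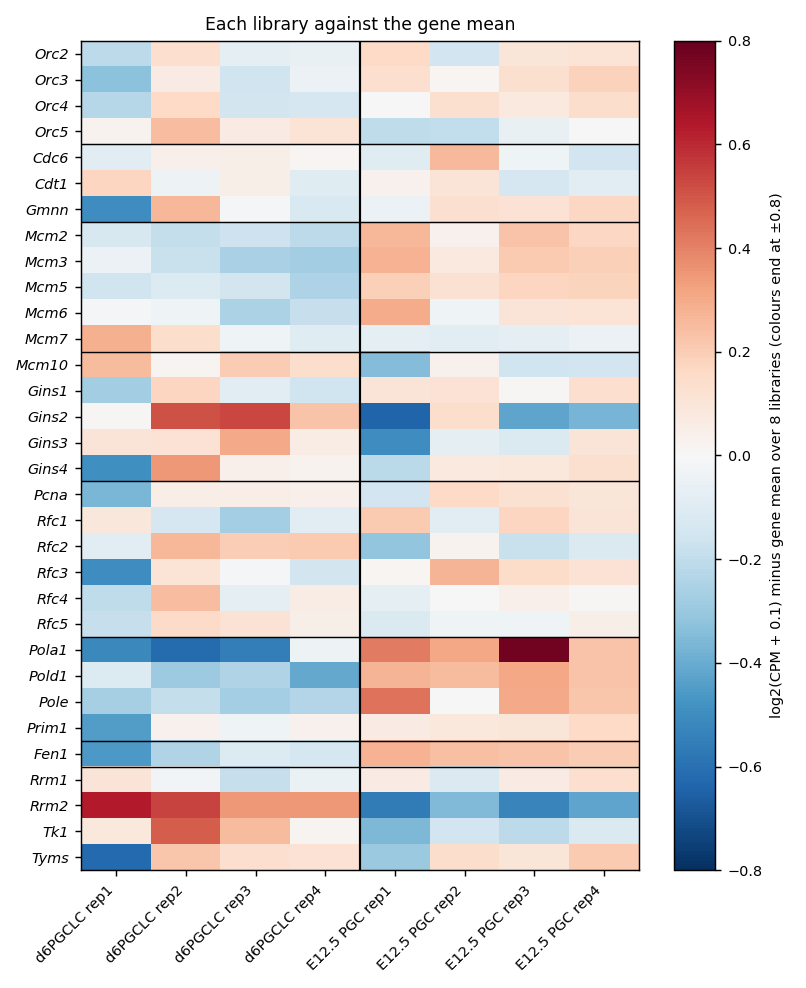
Deviation of each replication gene in each library from its mean over the 8 libraries, on the log2(CPM + 0.1) scale, from blue (below) to red (above), with lines between the roles and between the groups. *Rrm2* is red in all d6PGCLC columns, *Mcm2*, *Mcm3*, *Mcm5*, *Pold1* and *Fen1* are blue in all of them, and d6PGCLC replicate 1 is the bluest column for *Tyms*, *Gmnn* and *Gins4*.

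A further 55 genes of the pathway were listed by function, 51 of which were in the table. The list was made with earlier results of these data known in part, that of *Skp2* among them. Of the 51 genes 12 (23.5%) were higher and 12 (23.5%) lower in d6PGCLCs and 27 did not pass. The shares were 16.1% and 15.4% over all genes and 28.5% and 25.4% over the well-counted genes. In the pathway genes 5 of the 24 calls did not hold with each library left out in turn (*Mtbp*, *Donson*, *Mcm9*, *Rrm2b* and *Dut*). The median over the 51 genes was -0.03 on the log2 scale. A change of 1 or more on the log2 scale was reached by 3 of the called genes, or 5.88% of the 51, beside 14.7% of all genes. *Rpa2*, the middle subunit of the single-stranded DNA binding protein RPA, was at 53.2, 64.8, 61.1 and 47.6 CPM in d6PGCLCs, with 134, 126, 126 and 126 CPM in E12.5 PGCs, and the groups did not overlap (log2 fold change -1.17, standard error 0.104, adjusted p = 1.35e-08). Its partners *Rpa1* (599 ± 10.6 and 627 ± 29.8 CPM, log2 fold change -0.07, standard error 0.0786, adjusted p = 0.658) and *Rpa3* (log2 fold change -0.39, standard error 0.162, adjusted p = 0.0738) did not pass. *Pold4*, the smallest subunit of polymerase delta, was at 6.76, 4.68, 3.07 and 4.00 CPM in d6PGCLCs, with 0.873, 0.631, 1.57 and 1.26 CPM in E12.5 PGCs (log2 fold change 2.04, standard error 0.349, adjusted p = 5.38e-05), opposite in direction to *Pold1*. *Skp2*, a ubiquitin ligase subunit that targets CDT1 and the inhibitor p27, was at 230.5 ± 37.9 and 82.6 ± 10.1 CPM (log2 fold change 1.48, standard error 0.116, adjusted p = 2.27e-09).

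The accessory subunits of the polymerases went in both directions (genes in this paragraph were named after their values were seen, apart from the smallest change of each list). *Pola2*, the second subunit of polymerase alpha, was at 150.02 ± 7.85 CPM in d6PGCLCs, with 94.3 ± 6.05 CPM in E12.5 PGCs (log2 fold change 0.67, standard error 0.0913, adjusted p = 5.04e-06), opposite in direction to *Pola1*. *Pole2* rose (log2 fold change 0.61, standard error 0.147, adjusted p = 0.00248) and *Pole3* fell (log2 fold change -0.59, standard error 0.127, adjusted p = 0.000827), while *Pole4* did not pass (log2 fold change -0.05). All 3 other MCM proteins listed were lower, namely *Mcm8* (-0.54) and *Mcm9* (-0.44), which act in repair and meiosis, and *Mcmbp* (-0.54), an MCM binding protein. The call of *Mcm9* (quasi-likelihood adjusted p = 0.0382) was lost without any 1 of 6 libraries, all but d6PGCLC replicate 1 and E12.5 PGC replicate 2, with an adjusted p of up to 0.115. At the fork, *Clspn* (-0.59) and *Wdhd1* (-0.59), both parts of the moving replisome, were lower, *Atad5*, which unloads PCNA, was higher (0.64), and *Tipin* had the smallest value (0.15, adjusted p = 0.300). Among the origin firing factors *Dbf4*, the activator of the CDC7 kinase, was at 373 ± 24.9 and 372 ± 17.5 CPM (log2 fold change 0.00). Of the 7 primer removal and topoisomerase genes *Rnaseh2b*, a subunit of ribonuclease H2, passed and was higher (0.53). *Top2a*, the topoisomerase of dividing cells, was at 1505 ± 221 and 1505 ± 192 CPM. Of the chromatin assembly genes *Chaf1b* (0.73) and *Nasp* (0.36) were higher, and *Chaf1a* was at 229 ± 5.86 and 232 ± 5.94 CPM. In nucleotide supply *Samhd1*, which breaks down deoxynucleotides, was higher (204 ± 32.01 against 106 ± 3.22 CPM, log2 fold change 0.95, standard error 0.102, adjusted p = 2.19e-07), as was *Tk2*, the mitochondrial thymidine kinase (0.49), *Dck*, *Rrm2b* and *Dut* were lower (-0.37, -0.42 and -0.29), and *Shmt1* had a log2 fold change of 0.05. The call of *Dut* was lost without d6PGCLC replicate 1 or 3 or E12.5 PGC replicate 2, 3 or 4 (adjusted p up to 0.0865). The call of *Rrm2b* (adjusted p = 0.0465) was lost without any 1 of 5 libraries, d6PGCLC replicates 3 and 4 and E12.5 PGC replicates 1, 3 and 4, with an adjusted p of up to 0.137 in the same test. *Ddb1* was higher and *Cul4a*, its partner in the ligase that degrades CDT1, was lower (0.73 and -0.50), while *Cul4b* did not pass (log2 fold change -0.22, standard error 0.103, adjusted p = 0.127).

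**Figure D5:**
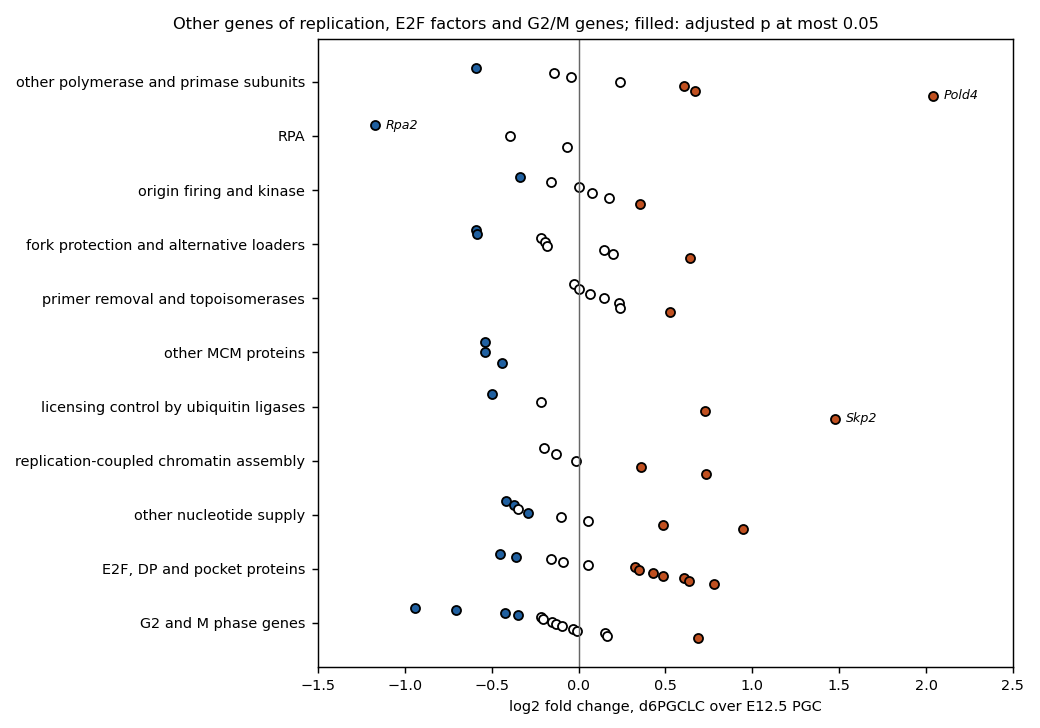
Log2 fold change (d6PGCLC over E12.5 PGC, horizontal axis) of the other genes of the replication pathway, of E2F, DP and pocket proteins and of G2 and M phase genes, 1 point per gene, filled where the adjusted p was at most 0.05. Most points lie between -1 and 1, with *Pold4* at 2.04, *Skp2* at 1.48 and *Rpa2* at -1.17 outside this range.

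Genes that regulate or follow the S phase were set beside the members. Of 12 counted E2F, DP and pocket protein genes 7 were higher in d6PGCLCs (*E2f2*, *E2f5*, *E2f7*, *E2f8*, *Tfdp2*, *Rbl1* and *Rbl2*, log2 fold changes 0.33 to 0.78) and 2 were lower (*Tfdp1* and *Rb1*, -0.36 and -0.45), or 58.3% and 16.7%, beside 16.1% and 15.4% of all genes and 28.5% and 25.4% of the well-counted ones. Of these calls 3 were lost with libraries left out in turn, *E2f7* without E12.5 PGC replicate 3 (adjusted p = 0.0516), *Rbl2* without replicate 1 or 2 of d6PGCLCs or 1 or 3 of E12.5 PGCs (up to 0.0759), and *Rb1*, whose groups overlapped, without replicate 2 or 3 of d6PGCLCs or 1 or 3 of E12.5 PGCs (up to 0.120). *E2f1*, an activator of S phase genes, was at 185 ± 14.98 and 207 ± 4.79 CPM (log2 fold change -0.16, 95% interval -0.34 to 0.02, adjusted p = 0.206), and *E2f3* had a log2 fold change of 0.05. Of 14 genes of G2 and M phase, *Aurkb* was higher (0.69), *Cdc20*, *Cenpe*, *Cenpf* and *Mki67* were lower (-0.94 to -0.35), and 9 did not pass, with *Ccna2* at 561 ± 46.5 and 564 ± 19.2 CPM. The called shares were thus 7.14% higher and 28.6% lower. *Mki67* overlapped between the groups and was lost without replicate 2 or 3 of d6PGCLCs or 1 or 3 of E12.5 PGCs (adjusted p up to 0.0636). The summed level of these 14 genes was 3819 to 4703 CPM in d6PGCLCs and 4709 to 5294 CPM in E12.5 PGCs. Whether the share of cells in S phase differed between the 2 kinds of cells was not tested, since these libraries do not measure it.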

How the data were processed

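The count table was deposited without normalization and holds whole numbers of reads with a unique position, beside the exonic length in bases of the isoform that the authors counted for each gene. Per the study's methods, stranded poly(A) libraries were read single-end, aligned with STAR to GRCm38 (mm10 in the submitters' processing notes) and counted with QuasR on the exons of an isoform drawn at random for each gene, after genes with overlapping promoters had been dropped at random. A member without a row may have been lost at that step. The strand setting of the counting is not given in the sources used here.

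Entrez identifiers were matched to RefSeq symbols for 21907 of 21950 genes. Counts of all genes were fitted with edgeR 4.0.16 in R 4.3.3 (TMM, glmQLFit, glmQLFTest, prior count 0.125, cell type as the only term), and p-values were adjusted by Benjamini-Hochberg over all genes. With 4 pools a group, precision is limited by the spread between pools. Alternative settings were DESeq2 1.42.0, the likelihood ratio test, 3 other scalings, 2 filters on low counts, a prior count of 2, a replicate block, a loess offset on exonic length (span 0.5) and leaving out each library. The steps were tested on simulated counts with known changes. Of 50 genes changed by a log2 fold of 0.5, 28 were called in the right direction, and 48 of 50 at a log2 fold of 1. Of 21750 unchanged genes 21 were called. Changes of 0.5 were thus often missed, and smaller ones were not simulated. No pair of libraries agreed within sampling noise (ratio of chi-square to degrees of freedom at least 3.19).

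The members and lists were chosen with earlier results of these data known. Per-library values are given for the 10 called members with the largest change, called members of a role whose counted members were all called one way, and the 5 uncalled members with the smallest change. Pathway genes were named when called with a log2 fold change of 1 or more in size, or as the smallest change of their list. Other genes with values were chosen after the values were seen. The authors' fold changes and the oocyte data were not used here. The result for 1 marker gene is left out.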

Additional observations from a re-analysis of the deposited data

Results flagged for a closer look

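Within each group of 4 libraries, the highest or lowest value of each of the 32 replication genes was compared with the others by Dixon's test. Of the 64 sets examined, 5 had a library farther from the rest than the critical value at 95%, where chance alone gives about 3.2.

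The lowest library was d6PGCLC replicate 1 in 3 of these sets. *Pcna* was at 218 CPM there and at 289 to 293 CPM in the other d6PGCLC libraries, *Prim1* at 118 against 157 to 164 CPM, and *Tyms* at 73.9 against 124 to 133 CPM. Without this library the log2 fold changes were -0.01 (*Pcna*), -0.09 (*Prim1*) and 0.11 (*Tyms*), and by edgeR's quasi-likelihood test none of the 3 passed (adjusted p = 1, 0.531 and 0.56). *Gins4* was at 73.5 CPM in E12.5 PGC replicate 1, with 90.3 to 93.2 CPM in replicates 2 to 4, and its log2 fold change without it was -0.08. *Pola1*, the member with the fewest counts, was highest in d6PGCLC replicate 4, at 6.42 CPM against 4.28 to 4.59 CPM, and without that library its log2 fold change was -1.02 (adjusted p = 0.00117, quasi-likelihood test).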

How the results depend on the processing

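Between 10 and 15 members passed the test under the alternatives, 3 to 6 of them higher and 7 to 11 lower in d6PGCLCs. Of all 21950 genes, 5978 (without E12.5 PGC replicate 3, 10 members) to 7322 (likelihood ratio test, 11 members) passed. Settings that tested fewer genes called 15 members each. They called 6537 of 11472 genes with filterByExpr, 6708 of 11767 with the CPM filter and 7087 of 14410 with DESeq2. The calls of *Mcm2*, *Mcm3*, *Mcm5*, *Pola1*, *Pold1*, *Pole*, *Fen1*, *Rrm2*, *Tk1* and *Gins2* were kept under each alternative. The other pathway genes gave 11 to 13 higher and 8 to 16 lower. The median log2 fold change of all genes moved by -0.035 with library sizes alone, -0.013 with DESeq2 size factors and -0.0395 with upper quartile scaling. With the offset on exonic length it moved by -0.063. *Mcm6* and *Rfc2* were lost under the settings named with their values. Values near 0 changed sign. *Cdc6* was at -0.010 with DESeq2 and with its size factors, -0.035 with library sizes alone, -0.038 with upper quartile scaling, -0.016 with filterByExpr and -0.013 with CPM above 1 in at least 3 samples. *Rfc4* was at -0.015 with library sizes alone, -0.020 with upper quartile scaling and -0.084 with the offset on length, under which *Cdt1* was at -0.0080 and *Rfc5* at -0.033. With each library left out in turn, *Cdc6* ran from -0.045 to 0.10, *Cdt1* from -0.011 to 0.087, *Gins4* from -0.15 to 0.12, *Rfc4* from -0.071 to 0.087 and *Tyms* from -0.15 to 0.11. The cause was not tested. *Pola1* passed a log2 fold change of 1 in size only without d6PGCLC replicate 4.

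Both groups carry replicate numbers 1 to 4, but nothing in the labels says that a number marks a shared day or batch. Deviations from the group means correlated by 0.253, 0.0983, -0.0101 and 0.0322 between libraries of the same number (11487 genes), so the numbers were not taken as a pairing. With the replicate block 15 members passed, 5 higher and 10 lower (gaining *Mcm10*, *Rfc1* and *Rfc3*), and 7270 genes in place of 6919. Of the 4 d6PGCLC libraries 3 correlated best with their own number, as a hint from the data only.

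Depth limits *Pola1*, *Gins2* and *Gins3* most, which had the fewest reads among the members. The counted isoform was drawn at random, and 5 members were not in the table.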
